A study of Arabidopsis thaliana with 12 samples.

Results

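The small RNAs of Arabidopsis thaliana seedlings that carry a mutation in HDA6, a histone deacetylase, were compared with those of seedlings that carry a mutation in NRPE1, the largest subunit of RNA polymerase V (Pol V). The comparison used 4 of 12 libraries, 2 repeats of hda6 (hda6-/-) and 2 of nrpe1 (nrpe1-/-), and was made within each repeat over the 4213 regions of 500 bp that both deposited tables list, of 6125 in either table. Wild type, also 2 libraries, stands beside them for reference. All seedlings were 10 days old and came from plates at 22 °C under 16 h light and 8 h dark per day, and RNA was total RNA of seedlings. The labels give each mutant only as homozygous, with no allele or line, and spell the genotype of hda6 repeat 1 differently from that of repeat 2, so its title was followed. Transcripts of HDA6 and NRPE1 were not measured here, so the small RNA tables check neither the genotypes nor the tissue, and fewer cells with a small RNA cannot be told apart from fewer copies per cell. The other libraries of the fit were arid2/3/4 (arid2-/-arid3-/-arid4-/-) and epcr1/2 (epcr1-/-epcr2-/-), which shared the estimate of spread.

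In plants, Pol IV makes the precursors of the siRNAs that guide DNA methylation to transposons and repeats, and Pol V makes longer transcripts at the same places, to which the siRNAs bind. HDA6 removes acetyl groups from histones and is known for its part in keeping transposons, ribosomal RNA genes and repeats silent and methylated. Pol IV itself is drawn to chromatin that is already silent.

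Each value is a score, the authors' scaled abundance of small RNAs in a 500 bp region, rounded to a whole number. Differences are hda6 minus nrpe1 on the log2(score + 89) scale, so a value below 0 means fewer small RNAs in hda6, and the added 89 understates the change of low scores. A region was called at a limma adjusted p under 0.05 over all 4213 regions. Regions are named by chromosome and position (TAIR10) and by the gene or pseudogene they overlap or lie nearest to. The median score over the regions was 209 and 165 in the wild-type repeats, 185 and 184 in hda6, and 173 and 116 in nrpe1. The nrpe1 median was thus lower in repeat 2 while that of hda6 was level, and the median difference was 0.24 in repeat 1 and 0.58 in repeat 2. The lowest wild-type scores were 95 and 98, so regions with few small RNAs in wild type are not part of these data.

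The regions at the extremes of the comparison belonged to a few kinds of sequence, which are printed here because the results turn on them. The region with the largest difference in the direction lower in hda6 held the tandem repeat of about 178 bp that lies at the centromeres. One unit from chromosome 4 follows, with its best match in the region of this repeat with the lowest difference on chromosomes 1 and 5. Bases that differ from the chromosome 4 unit are in capitals. The chromosome 1 unit differed at 24 of 178 bases and the chromosome 5 unit at 21. The first is the plus strand of chr4:3966501-3966678, the others are the minus strands of chr1:15083192-15083369 and chr5:11733618-11733795.
Unit on chromosome 4: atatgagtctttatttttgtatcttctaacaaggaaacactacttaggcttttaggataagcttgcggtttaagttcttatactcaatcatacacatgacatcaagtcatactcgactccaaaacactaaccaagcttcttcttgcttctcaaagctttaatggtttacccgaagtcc
Unit on chromosome 1: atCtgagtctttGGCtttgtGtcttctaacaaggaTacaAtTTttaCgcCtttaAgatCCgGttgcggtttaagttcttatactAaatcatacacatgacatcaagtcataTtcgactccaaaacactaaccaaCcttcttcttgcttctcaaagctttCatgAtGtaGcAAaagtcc
Unit on chromosome 5: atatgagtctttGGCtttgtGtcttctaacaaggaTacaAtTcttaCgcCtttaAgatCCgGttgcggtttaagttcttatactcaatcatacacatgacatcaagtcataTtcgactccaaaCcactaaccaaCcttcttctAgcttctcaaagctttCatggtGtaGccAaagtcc

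The 12 regions lower in nrpe1 with the largest difference were taken as 1 per family of shared words, none within 2 kb of another. Of these, 10 held a stretch of 35 bases in common, on either strand. The stretch is in capitals below in 4 of them, each read in the same orientation with its flanks, at chr3:7922086-7922170 (minus strand), chr5:7833902-7833986 (plus), chr5:5063504-5063588 (minus) and chr2:8854399-8854483 (plus).
Near TIC: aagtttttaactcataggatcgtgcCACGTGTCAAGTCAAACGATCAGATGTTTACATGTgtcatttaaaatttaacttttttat
Near AT5G23250: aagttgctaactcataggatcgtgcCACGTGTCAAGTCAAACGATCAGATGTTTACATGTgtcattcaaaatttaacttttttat
Upstream of AT5G15560: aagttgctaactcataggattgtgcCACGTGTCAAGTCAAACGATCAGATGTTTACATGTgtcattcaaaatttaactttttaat
Upstream of GPRI1: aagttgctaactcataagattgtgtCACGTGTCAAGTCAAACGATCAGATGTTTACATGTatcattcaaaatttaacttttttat
The words of these 4 regions occurred in a median of 1 to 4 copies in the genome.

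The region with the widest difference of all lies in an intron of AT2G01008, at the end of chromosome 2 beside ribosomal RNA genes. Its chr2:1521-1820 (plus strand, CG dinucleotides in capitals) had 6 CG sites in 300 bases.
AT2G01008 intron: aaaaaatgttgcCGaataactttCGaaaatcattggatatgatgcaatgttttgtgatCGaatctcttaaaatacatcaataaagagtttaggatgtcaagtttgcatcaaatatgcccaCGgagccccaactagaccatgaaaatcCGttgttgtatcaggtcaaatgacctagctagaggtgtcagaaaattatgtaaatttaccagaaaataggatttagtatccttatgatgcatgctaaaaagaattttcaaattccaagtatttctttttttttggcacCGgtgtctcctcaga
A mostly single-copy region of chromosome 4, 1330 bp from YY1, had 0 CG sites in chr4:3768101-3768400 (plus strand). It was among the 12 with the largest difference in the direction lower in hda6.
Near YY1: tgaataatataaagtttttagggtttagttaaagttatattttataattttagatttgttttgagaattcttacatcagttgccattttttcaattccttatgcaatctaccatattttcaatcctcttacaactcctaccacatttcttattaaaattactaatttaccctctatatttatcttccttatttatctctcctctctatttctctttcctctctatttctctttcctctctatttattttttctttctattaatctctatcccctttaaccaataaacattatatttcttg
A further kind, in the long non-coding RNA gene AT2G05705, was a run of the dinucleotide GA, in capitals at chr2:5022291-5022410 (plus strand).
AT2G05705, GA repeat: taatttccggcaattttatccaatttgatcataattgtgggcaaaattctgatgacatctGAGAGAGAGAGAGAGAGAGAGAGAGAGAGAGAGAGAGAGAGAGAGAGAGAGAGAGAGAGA

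Regions with fewer small RNAs in nrpe1 outnumbered those with fewer in hda6. Of the 4213 regions, 2240 were called lower in nrpe1 (53.2%) and 946 lower in hda6 (22.5%), and 1027 were not called. The 2240 regions fell into 1760 families of shared sequence and the 946 into 454, and no family held calls in both directions. The difference had the same sign in both repeats at 3921 regions (93.1%), and no called region had opposite signs. The fitted difference is the mean over the repeats, so the call itself favours equal signs. Across regions, which are not independent replicates, the differences of the repeats were correlated at a Spearman rho of 0.939 (n = 4213). A score ratio of at least 2 in both repeats, after adding 10, was reached by 1373 regions (32.6%) in the direction lower in nrpe1 and by 88 (2.09%) lower in hda6. The count lower in hda6 was 384 without repeat 1 of hda6, 520 without its repeat 2, 588 without repeat 1 of nrpe1 and 532 with the 4 libraries of these mutants alone in the fit. Libraries brought to a common median gave 1267 lower in hda6 and 2129 lower in nrpe1, quantile normalization gave 1366 and 1403, scaling on the pericentromere gave 1131 and 1917, and scaling on the arms gave 2623 and 620. Which direction is the more frequent therefore depends on the scaling, and the contrasts between classes of region below are given with that in view.

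**Figure D1:**
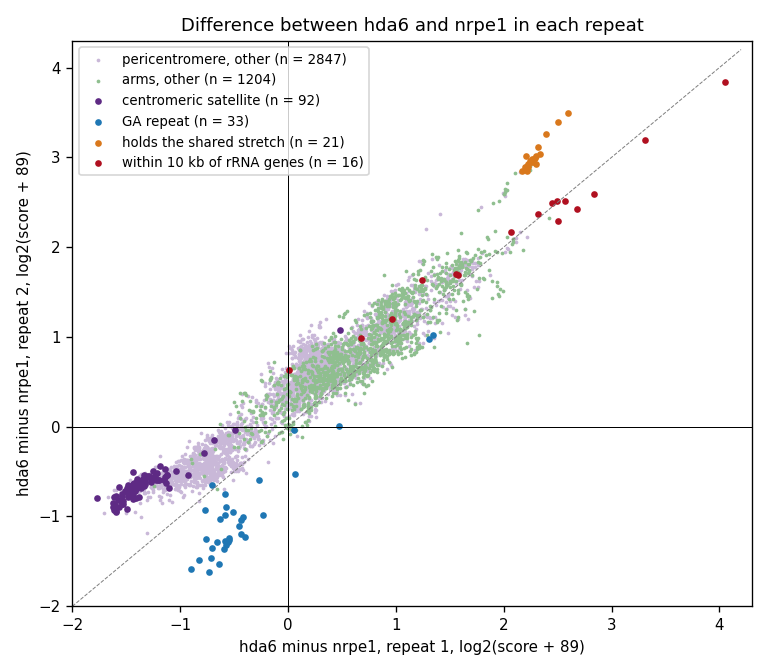
Difference between hda6 and nrpe1 in repeat 1 (x axis) and repeat 2 (y axis), on the log2(score + 89) scale, with 1 point per region and colours for the kinds of sequence named in the text. Most regions labelled centromeric satellite, chosen by a repeat period of about 178 bp, lie at the lower left. One of them, Chr1_1250500_1250999 on an arm, lies at 0.48 and 1.08. Regions with the shared stretch and regions by ribosomal RNA genes lie at the upper right, and most GA repeats lie below the other regions in repeat 2.

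The chromosome arms were where nrpe1 had fewer small RNAs than hda6. Of 1233 arm regions 1014 were lower in nrpe1, 19 lower in hda6 and 200 not called. Median arm scores were 217 and 170 in wild type, 125 and 121 in hda6, and 47 and 28 in nrpe1. In the pericentromere, taken as 3 Mb to either side of the centromere, 1226 of 2980 regions were lower in nrpe1, 927 lower in hda6 and 827 not called, with median scores of 206 and 164 in wild type, 215 and 212.5 in hda6, and 225.5 and 153 in nrpe1. The median difference was 0.72 and 0.85 on the arms and 0.10 and 0.45 in the pericentromere, so the pericentromere lay 0.62 and 0.39 below the arms in the repeats (mean difference -0.50 ± 0.16, SD, n = 2). With 2 repeats an exact paired permutation test cannot give a two-sided p under 0.5. Without repeat 1 or repeat 2 of hda6, or repeat 2 of nrpe1, the pericentromeric count lower in nrpe1 was 712, 663 and 728. The count lower in hda6 was 373, 507 and 577 without repeat 1 of hda6, its repeat 2 and repeat 1 of nrpe1. The 19 arm regions became 11 without repeat 1 of either mutant and 40 without repeat 2 of nrpe1.

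The share of regions lower in hda6 decreased step by step with distance from the centromere. Within 1 Mb, 735 of 1740 regions were lower in hda6 and 501 lower in nrpe1, with median differences of -0.13 and 0.18. Between 1 and 2 Mb the counts were 151 and 384 of 699, between 2 and 3 Mb 41 and 341 of 541, and between 3 and 5 Mb 9 and 337 of 436. Beyond 5 Mb they were 10 and 677 of 797, with median differences of 0.75 and 0.86. The counts within 1 Mb rested on single libraries. Without repeat 1 of nrpe1 the majority there turned over, to 462 lower in hda6 and 741 lower in nrpe1. Without repeat 1 or repeat 2 of hda6 the 2 counts fell to 293 and 177 and to 397 and 150, and without repeat 2 of nrpe1 they were 837 and 185. Under quantile normalization the steps from 1 to 3 Mb were level, with 203 of 699 and 159 of 541 lower in hda6. Counts in the pericentromere differed from chromosome to chromosome. In the pericentromere of chromosome 1, 385 of 767 regions were lower in hda6 and 237 lower in nrpe1, on chromosome 4 239 and 230 of 631, and on chromosome 5 186 and 248 of 732. On chromosome 3 42 of 476 were lower in hda6 and 299 lower in nrpe1, and on chromosome 2 75 and 212 of 374. The majorities on chromosomes 1 and 4 turned over without repeat 1 of nrpe1, to 179 and 313 and to 168 and 283. Without repeat 1 or repeat 2 of hda6, chromosome 1 had 140 and 127 and 115 and 108, chromosome 4 had 109 and 130 and 166 and 124, and chromosome 5 had 74 and 139 and 143 and 130. Without repeat 2 of nrpe1, chromosome 4 had 283 and 138, and chromosome 5 turned to 281 and 146. A common median also turned chromosome 5, to 298 and 232. On chromosomes 2 and 3 nrpe1 kept the larger count with any of these libraries left out, and lost it when scores were scaled on the arms (253 and 34, 314 and 48). Neighbouring regions share repeats, so these counts are not independent.

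Regions in long unbroken runs were lower in hda6. Of 500 regions in runs of 10 or more adjoining regions, 393 were lower in hda6 and 0 lower in nrpe1 (limma; 0 at an unadjusted p under 0.05), where 22.5% and 53.2% of all regions were. Median scores in these runs were 295 and 250 in wild type, 195 and 181 in hda6, and 383 and 266 in nrpe1, so hda6 was below and nrpe1 above wild type in both repeats. There were 20 such runs, in 13 of which every region was lower in hda6. The longest, 46 regions from 14723501 to 14746500 on chromosome 1, had median scores of 290.5 and 257.5 in wild type, 190 and 167 in hda6, and 416.5 and 279 in nrpe1. In runs of 5 to 9 regions 188 of 362 were lower in hda6 and 40 lower in nrpe1 (80 and 9 without repeat 1 of hda6, 99 and 9 without its repeat 2, 120 and 83 without repeat 1 of nrpe1), in runs of 2 to 4 the counts were 224 and 1053 of 1764, and among isolated regions 141 and 1147 of 1587. The 393 became 138 without repeat 1 of hda6, 202 without its repeat 2, 239 without repeat 1 of nrpe1 (5 then lower in nrpe1) and 465 without its repeat 2.

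**Figure D2:**
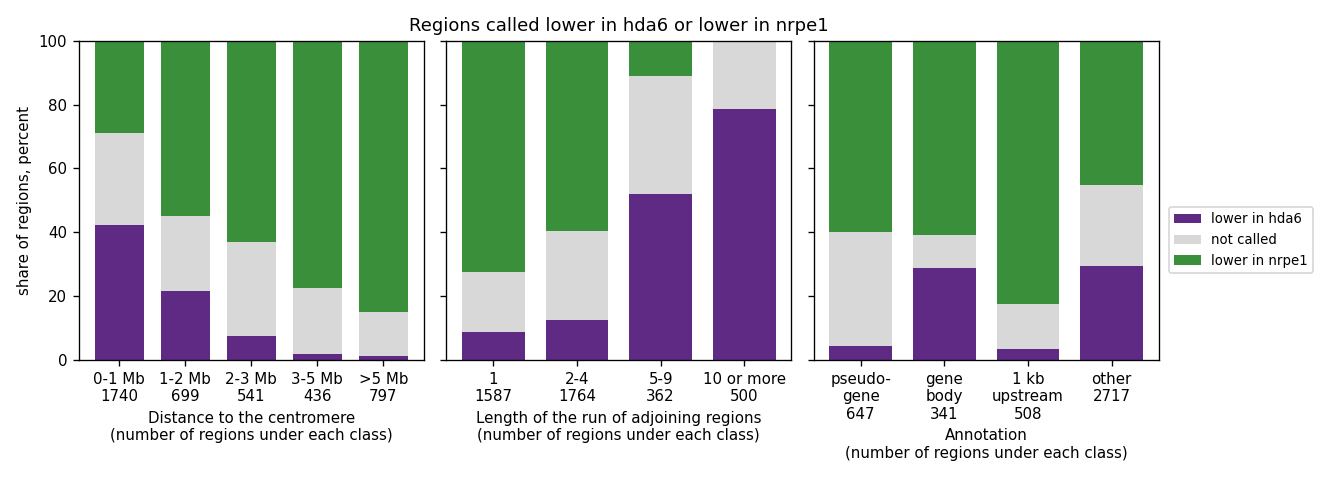
Share of regions (y axis, percent) called lower in hda6, not called, or called lower in nrpe1, by distance to the centromere, by the number of adjoining regions in a run, and by annotation, with the number of regions under each bar. The share lower in hda6 declines from 42.2% within 1 Mb to 1.25% beyond 5 Mb and rises from 8.88% of isolated regions to 78.6% of regions in runs of 10 or more.

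Tandem repeats made up much of these runs. A 24-base word was counted as tandem if it recurred in the region or within 1 kb to either side. Of 477 regions with at least 50% of such words, 348 were lower in hda6 (73.0%, against 22.5% of all regions) and 44 lower in nrpe1 (9.22%, against 53.2%). The 348 became 117 without repeat 1 of hda6, 201 without its repeat 2, 229 without repeat 1 of nrpe1 and 160 with these 2 mutants alone in the fit, and the larger count stayed with hda6 in each. Among the 92 with a repeat period of 175 to 181 bp, the length of the centromeric satellite, 89 were lower in hda6 and 1 lower in nrpe1. The figures label these 92 as centromeric satellite by their period alone. The 1 lower in nrpe1, Chr1_1250500_1250999, lies on an arm, with differences of 0.48 and 1.08. Their median scores were 824 and 884.5 in wild type, 433 and 568 in hda6, and 1352.5 and 958.5 in nrpe1. In all 92 regions hda6 was below wild type in both repeats, and in 90 nrpe1 was above it in both. They lay on all 5 chromosomes, 53 of them on chromosome 4. Without repeat 1 of hda6 36 of the 92 were lower in hda6, without its repeat 2 80, and with these 2 mutants alone in the fit 42. The largest family of this period, 75 regions on 5 chromosomes, had medians of 1180 and 1114 in wild type, 669 and 768 in hda6 and 1862 and 1218 in nrpe1, and all 75 were lower in hda6 (17 without repeat 1 of hda6, 62 without its repeat 2). Reads of one copy cannot be told from those of another, so this is closer to 1 measurement of the satellite than to 75.

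The largest difference in the direction lower in hda6 was at the chromosome 4 array whose unit is printed above. That region, at 3966501 to 3967000, was 865 bp from the pseudogene AT4G06708. It scored 773 and 808 in wild type, 331 and 441 in hda6, and 1280 and 942 in nrpe1. Both hda6 values lay below both wild-type values and both nrpe1 values above them, a difference of -1.33 ± 0.27 (SE, limma adjusted p = 2.33e-06). The second, on chromosome 1 at 15083001 in an intron of AT1G40104, scored 1113 and 1200 in wild type, 507 and 729 in hda6, and 1946 and 1330 in nrpe1. The third, on chromosome 2 at 3623501 in an intron of AT2G08986, scored 710 in both wild-type repeats, 324 and 392 in hda6, and 1157 and 839 in nrpe1. These had differences of -1.28 and -1.27. A region of 178 bp period that overlaps the miRNA gene MIR5643a, at 11667501 on chromosome 5, scored 172 and 202 in wild type, 86 and 112 in hda6, and 290 and 218 in nrpe1. Its difference of -0.86 was the lowest of the 19 regions on miRNA genes.

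Not every region lower in hda6 was repeated. Of 141 pericentromeric regions that were mostly single-copy, 59 were lower in hda6 (41.8%, against 31.1% of all pericentromeric regions). A further 63 were lower in nrpe1 (44.7%, near the 41.1% of all pericentromeric regions). Median scores of the 141 were 187 and 139 in wild type, 92 and 79 in hda6, and 116 and 80 in nrpe1. The region 1330 bp from YY1, a zinc finger transcription factor, scored 116 and 121 in wild type, 46 and 43 in hda6, and 258 and 177 in nrpe1. The mutants lay on opposite sides of wild type in both repeats, with a difference of -1.19 ± 0.13 (SE, limma adjusted p = 7.46e-18). On chromosome 3, a region at 15639501 that is 2559 bp from the pseudogene AT3G43730 scored 134 and 120 in wild type, 91 and 61 in hda6, and 356 and 253 in nrpe1, a difference of -1.25. A region at 11182501, 2529 bp from the pseudogene AT3G29210, scored 329 and 263 in wild type, 65 in both repeats of hda6, and 348 and 212 in nrpe1, a difference of -1.24. In this last region nrpe1 was on either side of wild type while hda6 was well below it. The 59 became 28 without repeat 1 of hda6 and 31 without its repeat 2.

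GA repeats formed a group of their own among the regions lower in hda6. The GA dinucleotide repeated 12 times, on either strand, occurred in 33 regions (0.783% of all), of which 28 were lower in hda6, 2 lower in nrpe1 and 3 not called. Of all regions, 22.5% were lower in hda6 and 53.2% lower in nrpe1. Reads of the repeat itself cannot be placed in 1 of the 33 regions, so these are not independent measurements. This group was picked after its values were seen and is a description. With 1 library of hda6 or nrpe1 left out, 24 to 29 of the 33 were lower in hda6. The region in AT2G05705 scored 183 and 243 in wild type, 79 and 81 in hda6, and 224 and 421 in nrpe1, a difference of -1.24. A region at 13095001 on chromosome 2, in an untranslated exon of AT2G30740, scored 202 and 271 in wild type, 88 and 86 in hda6, and 206 and 449 in nrpe1. A region at 270501 on chromosome 1, in an untranslated exon of AT1G01725, scored 110 and 150 in wild type, 48 in both repeats of hda6, and 115 and 252 in nrpe1. In all 3, hda6 was steady between repeats and nrpe1 was higher in repeat 2. The nrpe1 score was higher in repeat 2 than in repeat 1 in 32 of the 33 GA regions, against 161 of all 4213 regions (3.82%). These regions accounted for 6 of the 19 arm regions that were lower in hda6. A different arm region, at 50001 on chromosome 2 in a coding exon of AT2G01035, scored 215 and 110 in wild type, 56 and 46 in hda6, and 254 and 124 in nrpe1, a difference of -0.95.

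Compared with wild type, the 946 regions lower in hda6 mostly had hda6 scores below wild type and nrpe1 scores above it. Median scores were 228.5 and 210 in wild type, 138 and 140 in hda6, and 340.5 and 244.5 in nrpe1. The hda6 score was below wild type in both repeats at 928 of them, and the nrpe1 score was above it in both at 769. Of all 4213 regions, hda6 was below wild type in both repeats at 2660 and nrpe1 above it in both at 1604. The 946 were called by hda6 scores below nrpe1 scores, so where each stood beside wild type follows in part from the call. Both comparisons share the wild-type libraries. The median hda6 score was 57.4% and 64.8% of wild type, and the median nrpe1 score 152% and 110%. A score at most 50% of wild type in both hda6 repeats was found at 68 of the 946, and nrpe1 was at least 2 times wild type in both repeats at 3.

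The regions lower in nrpe1 differed by position in where hda6 stood beside wild type. On the arms, the 1014 regions lower in nrpe1 had median nrpe1 scores of 14.1% and 10.6% of wild type and hda6 scores of 55.6% and 69.6%, so both mutants were below wild type and nrpe1 far more so. In the pericentromere, the 1226 such regions had nrpe1 scores of 59.6% and 56.8% of wild type and hda6 scores of 138% and 174%. Of all 2240, nrpe1 was at most 50% of wild type in both repeats at 1504, and hda6 was below wild type in both repeats at 1280 and above it in both at 770. Of all 4213 regions the same counts were 1613, 2660 and 1257. Here too the call used the hda6 and nrpe1 scores, so these counts follow in part from it.

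**Figure D3:**
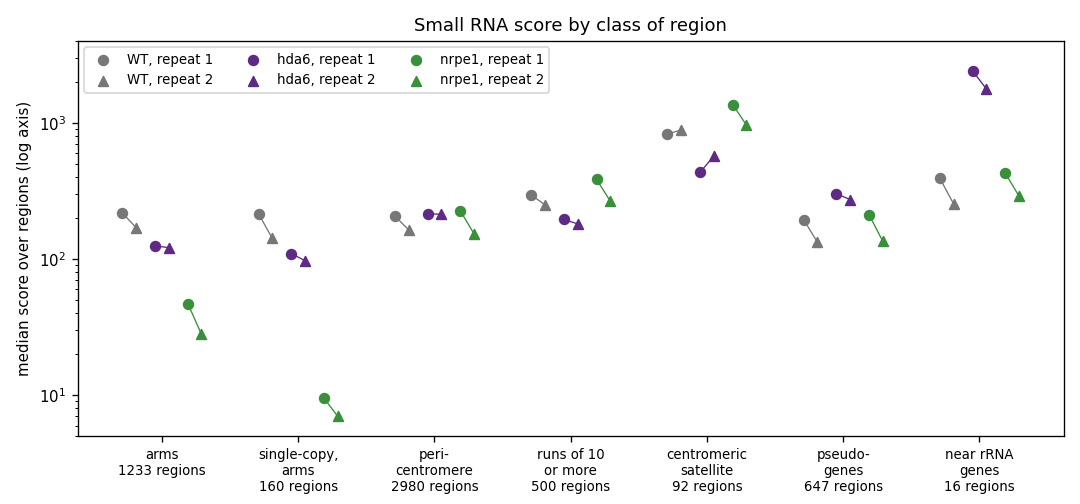
Median score over the regions of a class (y axis, log scale) in wild type, hda6 and nrpe1, with a circle for repeat 1 and a triangle for repeat 2. On the arms nrpe1 is the lowest, at 47 and 28, in runs of 10 or more and in the centromeric satellite of about 178 bp hda6 is the lowest, and by ribosomal RNA genes hda6 is the highest, at 2395 and 1772.5.

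Single-copy arm regions had nrpe1 scores near 0. Of 160 such regions, 150 were lower in nrpe1 (93.75%, against 82.2% of all arm regions) and 1 lower in hda6. Their median scores were 213.5 and 141.5 in wild type, 109.5 and 97 in hda6, and 9.5 and 7 in nrpe1. Of 508 regions in the 1 kb upstream of protein-coding genes, 419 were lower in nrpe1 (82.5%, against 53.2% of all regions) and 18 lower in hda6 (3.54%, against 22.5%). Of 183 gene-body regions on the arms, 151 were lower in nrpe1 (82.5%) and 8 lower in hda6. The gene-body share was near the 82.2% of all arm regions and shows nothing particular to gene bodies. Of the 382 upstream regions on the arms, 325 were lower in nrpe1 (85.1%), also near that share. Of the 126 upstream regions in the pericentromere, 94 were lower in nrpe1 (74.6%, against 41.1% of all pericentromeric regions). A further 17 were lower in hda6 (13.5%, against 31.1%). Those 126 lay a median of 2.06 Mb from the centromere, against 0.72 Mb for the pericentromere as a whole. In the pericentromere, 56 of 158 gene-body regions were lower in nrpe1 and 90 lower in hda6 (57.0%, against 31.1% of all pericentromeric regions). The 90 became 31 without repeat 1 of hda6 and 44 without its repeat 2, fewer than the 52 and 49 then lower in nrpe1. Of 19 regions on miRNA genes, 14 were lower in nrpe1 (73.7%) and 2 lower in hda6 (10.5%), and from 19 regions nothing particular to miRNA genes can be read beside the 53.2% and 22.5% of all regions. The region of MIR8167d, at 7057001 on chromosome 5, scored 337 and 222 in wild type, 312 and 188 in hda6, and 12 and 8 in nrpe1. The hda6 scores were close to wild type and the nrpe1 scores near 0, a difference of 1.75 ± 0.19 (SE, limma adjusted p = 5.3e-19). No listed region overlapped the TAS, tRNA or rRNA genes themselves.

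The highest scoring regions in wild type, with 1 exception, held the shared stretch, and all of those that held it were lower in nrpe1. The 35 bases occurred in 21 regions (0.498% of all, 18 families), 15 of them on the arms, and all 21 were lower in nrpe1. They include 20 of the 21 regions with the highest mean score in wild type. This set, too, was chosen after its values were seen. Scores were 2781 to 11904 in wild type repeat 1 and 1757 to 7428 in repeat 2, 1387 to 6026 and 1567 to 6654 in hda6, and 219 to 921 and 120 to 511 in nrpe1. The median nrpe1 score was 8.15% and 7.1% of wild type and the median hda6 score 49.5% and 83.4%, with differences between 2.51 and 3.04. The highest was on chromosome 3 at 7922001, 2294 bp from TIC, a circadian clock gene, with 11904 and 7428 in wild type, 6026 and 6654 in hda6, and 921 and 511 in nrpe1. The region 802 bp upstream of GPRI1 (GLK1, a transcription factor of chloroplast development) scored 2781 and 1757 in wild type, 1387 and 1567 in hda6, and 219 and 120 in nrpe1. The other 19 lay between these in wild type. Reads that map to the shared bases cannot be placed in 1 of the regions, so the 21 regions are not independent measurements.

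Regions beside ribosomal RNA genes stood apart because hda6 was far above wild type. Of the 16 regions within 10 kb of rRNA genes, 4 at the end of chromosome 2 and 12 in the pericentromere of chromosome 3, 15 were lower in nrpe1 and 1 was not called. Median scores were 389.5 and 253.5 in wild type, 2395 and 1772.5 in hda6, and 425.5 and 289 in nrpe1. The hda6 score was 1.26 to 16.5 times wild type in every region and repeat, and nrpe1 was above wild type in both repeats at 10 and below it in both at 3. The AT2G01008 intron region printed above, at 1501 to 2000 on chromosome 2, scored 375 and 391 in wild type, 6186 and 4136 in hda6, and 290 and 206 in nrpe1. Both nrpe1 values were below and both hda6 values more than 10 times above wild type, a difference of 3.94 ± 0.26 (SE, limma adjusted p = 7.84e-47). Its near-copy on chromosome 3 at 14195501, in an untranslated exon of AT3G41762, scored 550 and 497 in wild type, 6444 and 4389 in hda6, and 571 and 399 in nrpe1, a difference of 3.25. A region at 14204501, 293 bp from the non-coding RNA gene AT3G06365, scored 410 and 278 in wild type, 3654 and 2490 in hda6, and 436 and 339 in nrpe1. The 16 regions formed 9 families, some with several of the 16 and some with 1, and the part played by the number of rRNA gene copies in each line was not tested.

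Pseudogenes of the pericentromere, which in this annotation include many transposon remnants, also had more small RNAs in hda6 than in wild type. Of 647 pseudogene regions 388 were lower in nrpe1 (59.97%, near the 53.2% of all regions). A further 29 were lower in hda6 (4.48%, against 22.5%) and 230 were not called. Median scores of the 647 were 194 and 133 in wild type, 301 and 273 in hda6, and 211 and 135 in nrpe1. The share lower in nrpe1 was 58.26% in the pericentromere (against 41.1% of all regions there) and 71.43% on the arms (against 82.2%). Over all 647, nrpe1 was near wild type (119% and 108%) and hda6 was above it (152% and 199%). In the pericentromere hda6 was at 158% and 212% of wild type, and above it in both repeats at 460 of 563 regions. On the arms it was at 79.9% and 103%, with 38 of 84 regions below wild type in both repeats and 20 above. A score at least 2 times wild type in both hda6 repeats was found at 118 regions, of which 90 were on pseudogenes (13.9% of pseudogene regions, 0.785% of the others) and 13 by rRNA genes. Of these 118, 112 were pericentromeric and 115 lower in nrpe1 than in hda6, and they fell into 65 families. The 118 were picked by their high hda6 scores, so the count lower in nrpe1 follows in part from that choice. The 115 became 68 without repeat 1 of hda6, 75 without its repeat 2 and 78 with these 2 mutants alone in the fit. Scaled on the arms, 65 of the 118 were lower in hda6 and 13 lower in nrpe1, so the direction of these regions rests on the scaling. The 388 became 184, 185 and 215 without repeat 1 of hda6, its repeat 2 and repeat 2 of nrpe1, and the median difference of pseudogenes was -0.76 with scores scaled on the arms, so their direction relative to 0 rests on the scaling.

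Some dispersed pseudogene families instead had few small RNAs in nrpe1. A family of 17 regions that includes AT3G61330 and AT1G11265 had median scores of 881 and 631 in wild type, 685 and 812 in hda6, and 112 and 69 in nrpe1, and all 17 were lower in nrpe1 (14 to 17 with 1 library of hda6 or nrpe1 left out). Its region at 22695501 on chromosome 3, in AT3G61330, scored 1019 and 725 in wild type, 760 and 919 in hda6, and 122 and 72 in nrpe1. The hda6 values were on either side of wild type and nrpe1 far below, a difference of 2.33 ± 0.24 (SE, limma adjusted p = 1.17e-20). A pericentromeric family of 34 regions near AT1G36560 differed in kind, with 180.5 and 136 in wild type, 302 and 297 in hda6, and 236 and 149 in nrpe1. There both mutants were above wild type, and 24 of the 34 were lower in nrpe1. That count rested on single libraries, with 34 without repeat 1 of nrpe1, 1 without its repeat 2 and at most 1 without either repeat of hda6, and all 34 were lower in hda6 with scores scaled on the arms. Of 30 families with 10 or more regions, 12 had calls lower in hda6 alone, 16 lower in nrpe1 alone and 2 none.

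**Figure D4:**
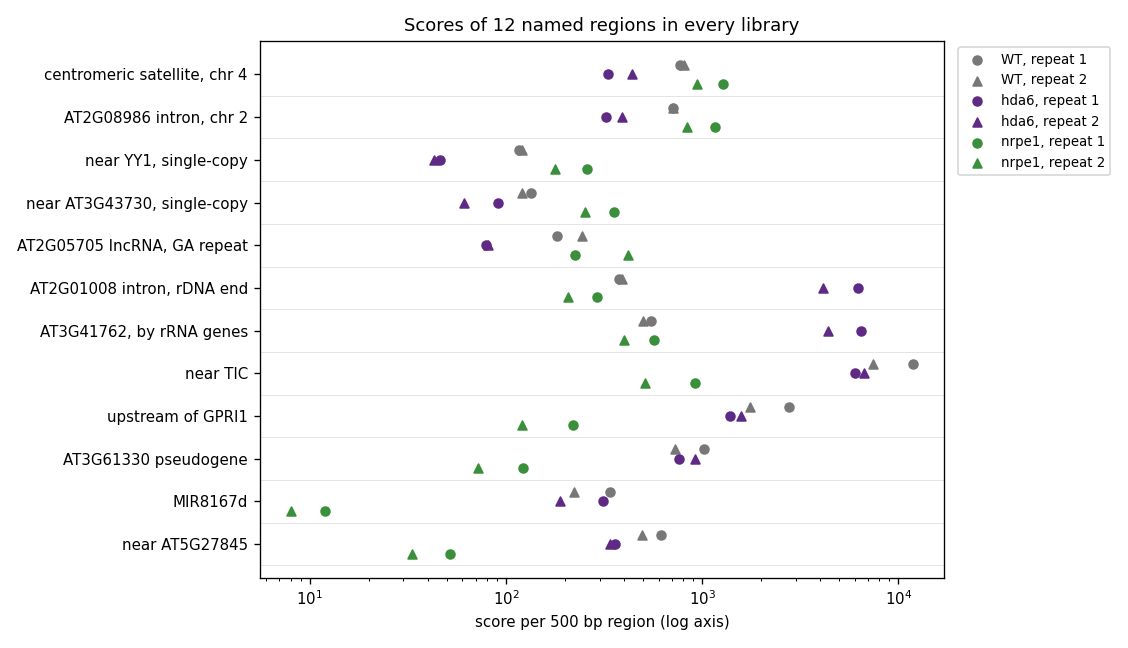
Score (x axis, log scale) of 12 named regions in each library of wild type, hda6 and nrpe1, with circles for repeat 1 and triangles for repeat 2. The upper 5 regions have hda6 below wild type in both repeats, the 2 by rRNA genes have hda6 at 4136 or more and nrpe1 at 571 or less, and the lower 5 have nrpe1 far below both others.

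Some regions were low in both mutants. The score was under 50% of wild type in both mutants and both repeats at 183 regions, 140 of them on the arms. Of these 125 were still lower in nrpe1, 1 was lower in hda6 and 57 were not called. A region at 486501 on chromosome 5, 28 bp upstream of MYB3R-5, a MYB transcription factor, scored 220 and 151 in wild type and 1 and 0 in both mutants. A region at 24970501 on chromosome 5, 1886 bp from TRM25, scored 201 and 123 in wild type, 16 and 7 in hda6, and 14 and 9 in nrpe1. No difference between the mutants was detectable in either (limma adjusted p = 1 and 0.995), since both are close to 0. Another, 754 bp upstream of AT2G20670, scored 108 and 127 in wild type, 31 and 37 in hda6, and 42 and 26 in nrpe1, with the mutants overlapping.

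Among regions with high scores and nearly equal mutants, one at 3054001 on chromosome 4, 1227 bp from the pseudogene AT4G06474, scored 1126 and 885 in wild type, 811 and 789 in hda6, and 977 and 648 in nrpe1. One in the pseudogene AT1G43740 scored 429 and 253 in wild type, 471 and 310 in hda6, and 472 and 280 in nrpe1. One in a coding exon of AT2G06555 scored 902 and 637 in wild type, 998 and 919 in hda6, and 1270 and 843 in nrpe1. Their differences were 0.00, 0.06 and -0.10, and in the first the order of the mutants changed between repeats.

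Of 9 loci well known from studies of RNA-directed DNA methylation, 7 had no listed region within 1 kb, namely SDC, FWA, ROS1, SUP, PAI1, PAI2 and FLC. The region 348 bp from AT5G27845, known as a solo LTR locus, scored 618 and 491 in wild type, 359 and 337 in hda6, and 52 and 33 in nrpe1. Both mutants were below wild type and nrpe1 was the lower in both repeats, a difference of 1.74 ± 0.21 (SE, limma adjusted p = 8.55e-15). Its chr5:9867601-9867900 (plus strand, CG dinucleotides in capitals) reads as follows.
Near AT5G27845: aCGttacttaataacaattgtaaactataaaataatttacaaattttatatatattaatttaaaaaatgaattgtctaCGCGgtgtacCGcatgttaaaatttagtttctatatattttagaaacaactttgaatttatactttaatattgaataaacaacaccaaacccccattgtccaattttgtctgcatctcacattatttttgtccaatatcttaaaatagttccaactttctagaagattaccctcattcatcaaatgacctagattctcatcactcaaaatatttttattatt
Within 1 kb of MEA, an imprinted Polycomb gene, a region at 550001 on chromosome 1 scored 129 and 114 in wild type, 41 and 66 in hda6, and 30 and 21 in nrpe1. Its difference was 0.31 ± 0.12 (SE, limma adjusted p = 0.0149). It was not called without repeat 2 of either mutant, and it changed sign under quantile normalization and scaling on the arms.

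Base composition went with the direction of the difference, and also with position. Regions of the lowest, middle and highest GC lay a median of 3.55, 0.87 and 0.72 Mb from the centromere. GC content was thus not separated from position, and its own part was not tested. With regions split evenly by GC content, 1082 of the 1422 with the lowest GC were lower in nrpe1 and 121 lower in hda6, while of the 1400 in the middle 510 and 624 were. Of those with the highest GC the counts were 648 and 201 of 1391, with hda6 scores at 145% and 193% of wild type. From lowest to highest GC, 76.1%, 36.4% and 46.6% were lower in nrpe1, against 53.2% of all regions. The shares lower in hda6 were 8.51%, 44.6% and 14.45%, against 22.5%. The 624 in the middle became 261 without repeat 1 of hda6, 317 without its repeat 2 and 358 without repeat 1 of nrpe1, and 385, 355 and 578 were then lower in nrpe1, so the majority of that group turned over. Copy number gave similar shares lower in hda6, against 22.5% of all regions. They were 465 of 1962 regions with 10 or more copies, 421 of 1950 with fewer that were not mostly single-copy, and 60 of 301 that were. In the same order 43.4%, 60.3% and 70.8% were lower in nrpe1. These classes lay a median of 0.82, 2.16 and 3.18 Mb from the centromere, so copy number was not separated from position. In the pericentromere alone, 28.3%, 33.6% and 41.8% were lower in hda6, and 36.9%, 46.4% and 44.7% lower in nrpe1.

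**Figure D5:**
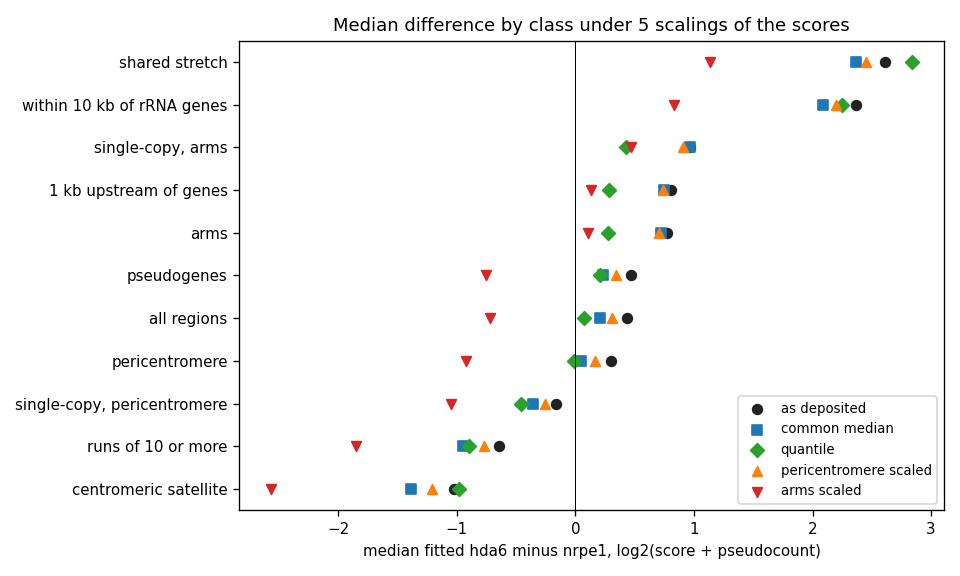
Median fitted difference between hda6 and nrpe1 (x axis, log2) in 11 classes of region under 5 scalings of the scores. The order runs from the shared stretch and rRNA gene regions at the top to the centromeric satellite at the bottom under each scaling, while the pericentromere, pseudogenes and all regions together change sign.

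Under all 5 scalings the 178 bp repeat had a median difference at or below -0.98 and 89 to 91 of its 92 regions called lower in hda6, runs of 10 or more had medians from -1.85 to -0.64, and the shared stretch had medians from 1.14 to 2.84. The arms kept a median above 0, from 0.11 to 0.77, although scaling on the arms sets it near 0 by construction. Regions by rRNA genes had medians from 0.83 to 2.37, and with that scaling 10 of the 16 were lower in nrpe1 and 2 lower in hda6. The pericentromere ranged from -0.92 to 0.30 and all regions together from -0.72 to 0.43. Pseudogenes ranged from -0.76 to 0.47.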

How the data were processed

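Sample titles gave each library its genotype and repeat. The authors deposited 1 table per repeat, with a whole-number score for each genotype in 500 bp regions. Reads were mapped with Bowtie 0.12.2 to TAIR10, per the submitters' processing notes. The sources used here do not give how scores were scaled, which read sizes were kept or how reads with several mapping places were treated, so depth is unknown and no counting interval is given.

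Coordinates were changed to count from 1. Genes and sequences came from RefSeq TAIR10.1. Regions that share at least 50% of their 24-base words formed a family, and those with at least 80% single words were called mostly single-copy. limma 3.58.1 in R 4.3.3 was run on log2(score + 89), with the repeat as a block because each repeat has its own table, and with a trended prior. The added 89 is the lower quartile (25%) of all scores over 0. It used 10 libraries, without nrpd1, whose scores are near 0. The prior had infinite degrees of freedom, so very small p-values rest on the trend. Adjustment was by Benjamini-Hochberg over the 4213 regions, and the fit was tested on simulated data. Whether repeats came from separate cultures is not stated, so the p-values reflect the spread of these samples alone, and that spread may be technical. Repeat deviations of hda6 and nrpe1 were correlated at 0.08, and those of the other pairs of genotypes at -0.07 to 0.64.

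Named regions are the 12 with the largest difference in each direction (1 per family), the 3 largest on the arms and in the pericentromere, the largest per annotation, the 3 closest to 0 among regions low in both mutants and among high scores, and those within 1 kb of 9 well-known loci. Members and lists were chosen with earlier results of these data known. Alternatives changed the pseudocount, filter, scaling, libraries, prior, minimum fold and set of regions.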

Additional observations from a re-analysis of the deposited data

How the results depend on the processing

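Of the values with a single measure over all regions, 137 recomputed values stayed within 1.5 times of the reported one or within its spread, 51 moved further and 1 reversed, as listed here, and the causes were not tested. In this order, counts are lower in hda6 over all regions (946), the pericentromere (927) and the arms (19), then lower in nrpe1 over the same (2240, 1226 and 1014). Leaving out 1 library gave 384 to 1140, 373 to 1100, 11 to 40, 1517 to 2664, 663 to 1582 and 854 to 1082. Scaling on the arms gave 2623, 2335, 288, 620, 194 and 426. Quantile normalization gave 141 on the arms lower in hda6, and 1403, 810 and 593 lower in nrpe1, and a common median gave 61 on the arms lower in hda6. With hda6 and nrpe1 alone in the fit, 532, 514 and, for the pericentromere lower in nrpe1, 741 were called. A 2-fold minimum on the fitted difference called 0 regions lower in hda6, of all regions, the pericentromere and the arms, where limma without it called 946 at the adjusted threshold, and 233, 83 and 150 lower in nrpe1. One region per family, 2766 regions, gave 445 and 429 lower in hda6. The 301 mostly single-copy regions, 141 pericentromeric and 160 on the arms, gave 59, 58, 1, 213, 63 and 150. These fits and the next had fewer regions than the 4213, so lower counts follow in part from the smaller set. Regions with a mean score above the lower quartile gave 12 lower in hda6 on the arms, and 1404 and 446 lower in nrpe1 over all regions and the arms. The median difference of 0.43 became 0.074 with quantile normalization, -0.72 when scaled on the arms and 0.77 in mostly single-copy regions (0.24 to 0.59 with a library left out). The contrast of -0.50 between pericentromere and arms was -1.31 with a pseudocount 10 times smaller, -0.29 with it doubled, -1.08 in mostly single-copy regions, and -0.62 and -0.39 in single repeats. Changes of at least 2-fold in both repeats (88 lower in hda6, 1373 lower in nrpe1) became 2 and 593 with the pseudocount of the fit, and 745 lower in hda6 after median scaling. Among named regions, 9 values reversed. They were at Chr2_8914500_8914999 (-0.50 quantile, -0.48 arms), Chr4_3054000_3054499 (-0.34 median, -1.57 arms), Chr1_16514000_16514499 (-0.25 median, -1.34 arms), Chr2_2604500_2604999 (0.37 quantile) and Chr1_550000_550499 (-0.26 quantile, -0.20 arms), all within 0.31 of 0 as reported. Without the replicate block 938 regions were lower in hda6 and 2214 lower in nrpe1, and no named region changed its call.

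Depth is unknown, 2 repeats per genotype limit every test, and reads of near-identical copies cannot be told apart, so counts of regions are not counts of independent loci.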

Other observations

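Regions listed in 1 table alone were not part of the comparison, but their values are of the same kind. The 1630 regions of the repeat 1 table alone had median scores of 116 in wild type, 151 in hda6 and 115 in nrpe1, and 75 of them were at least 2-fold lower in hda6 and 514 at least 2-fold lower in nrpe1, with no replicate check. On the arms, 457 of them had medians of 118, 61 and 21 in the same order, and in the pericentromere the other 1173 had 116, 181 and 132. The 282 regions of the repeat 2 table alone had medians of 113, 48 and 70.5, with 45 and 66 of them 2-fold lower in hda6 and in nrpe1. In the pericentromere, 179 of them had medians of 113, 56 and 87 in the same order, so hda6 was the lowest of the 3 there.

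On chromosome 4, a pair of runs away from the centromere, 21 regions from 1708001 to 1718500 and 39 from 1719001 to 1738500 near the locus AT4G03795, had hda6 below nrpe1 in repeat 1 and both nearly level in repeat 2. The first had medians of 321 and 187 in wild type, 176 and 174 in hda6, and 270 and 174 in nrpe1, and 3 of its regions were lower in hda6. The second had 338 and 206 in wild type, 182 and 190 in hda6, and 297 and 194 in nrpe1, with 6 lower in hda6. The fitted difference was below 0 in every region of both runs. In both, the wild-type and nrpe1 scores were lower in repeat 2 and hda6 was steady. These runs hold no tandem words, unlike the runs at the centromeres.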
